A study of Mus musculus with 7 samples.

Results

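The genes described here carry the symbols of the proteins of the cytosolic ribosome. They were taken from the table of transcript abundance by symbol (Rpl or Rps with a number, Rplp0 to Rplp2, and Rpsa), with symbols marked as pseudogenes by "-ps" left out. The rule found 89 genes of 54309 in the table, 53 of the large subunit and 36 of the small subunit, and it used no measured value. Of these, 82 had a mean of at least 1 TPM (a level per transcript length, scaled to the same sum in each sample) and were tested, 48 large and 34 small subunit genes. The 89 still include 6 entries annotated as processed pseudogenes without a coding part, and 2 of these were tested.

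Both groups were male C57bl/6 mice, 6-8 weeks old, with no transgene named in the labels, whose lumbar L4-6 dorsal root ganglia were collected 72 h after injury of the sciatic nerve. The groups differed in Zeitgeber time (ZT, hours from lights on): ZT20 with 4 samples and ZT8 with 3. Since 72 h is a whole number of days, the hour of injury and the hour of collection coincide and cannot be told apart. The ganglia, which hold the cell bodies of sensory neurons, were digested with enzymes and layered on an albumin step that enriches neurons, and the sequencing kit was made for small amounts of RNA. The labels do not say whether a sample came from 1 animal or several, so p-values measure the spread between these samples. Uninjured ganglia were not analysed here, so no value below is a response to injury.

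A ribosome joins a small subunit, which binds the mRNA and reads its codons, to a large subunit, which forms the peptide bonds, and its proteins are needed in fixed proportions. The mRNAs of most ribosomal proteins begin with a C followed by a run of pyrimidines, the 5′ terminal oligopyrimidine (TOP) tract, through which the kinase mTOR and the RNA-binding protein LARP1 set how strongly they are translated. In sensory neurons, mRNAs of ribosomal proteins are also found in axons, where proteins are made locally.

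The TOP tract can be seen in the start windows of Rpl38, which was higher at ZT20, and of Rps6, Rpl14 and Rpl15, which were lower. They are shown because they are the 4 members past the test, among those with a window in the table used, that hold such a start. Each window runs from 10 bases before the start to 20 bases from it onward, from RefSeq (GRCm38.p6, not the build of the expression table), and capitals mark the unbroken C/T run from the start base on.
Rpl38 (chr11:114668570-114668599, plus strand): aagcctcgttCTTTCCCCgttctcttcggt
Rps6 (chr4:86857348-86857377, minus strand): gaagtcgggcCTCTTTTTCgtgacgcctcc
Rpl14 (chr9:120571507-120571536, plus strand): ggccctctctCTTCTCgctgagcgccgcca
Rpl15 (chr14:18270967-18270996, minus strand): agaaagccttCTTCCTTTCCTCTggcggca
The capitals run for 8, 9, 6 and 13 bases. A start with C and at least 5 pyrimidines in a row from that base was found for 13 of 60 tested members with a RefSeq window (18.3% of their 71 windows), and in 2.51% of all 32851 windows of the table. Of the members past the test, 5 higher and 5 lower ones had a window, and 1 and 3 of them had such a start, so it occurred in both directions. The annotated start decides this count: a start placed a few bases off hides the tract.

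Ribosomal protein genes were abundant in all 7 samples. The 5 large subunit genes with the highest mean TPM were Rpl13a, Rpl19, Rpl35, Rpl41 and Rpl26, and abundant genes of the small subunit included Rps14, Rps9, Rps6 and Rps3. The median tested member had a mean of 176 TPM, against 12.7 TPM for all 14800 tested genes, and the members ran from 7.08 TPM (Rps12l1) to 894 TPM (Rps14). Together the 89 genes made up 1.47% to 1.87% of a sample's TPM in the ZT20 group and 1.80% to 2.40% in the ZT8 group.

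Summed over the 53 large subunit genes, ZT20 replicates 1 to 4 held 11487, 11407, 9790 and 9151 TPM, and ZT8 replicates 1 to 3 held 11663, 14063 and 11322 TPM. Over the 36 small subunit genes the sums were 7235, 7178, 6009 and 5573 TPM at ZT20, and 7506, 9911 and 6654 TPM at ZT8. In both subunits the groups overlapped, ZT20 replicates 3 and 4 were lowest, and ZT8 replicate 2 stood above every other sample. The mean sum at ZT20 was 0.847 times that at ZT8 for the large subunit (10459 ± 1171 TPM, SD, n = 4, against 12349 ± 1494 TPM, n = 3). For the small subunit it was 0.810 times (6499 ± 837 against 8024 ± 1689 TPM), and without ZT8 replicate 2 the ratios were 0.910 and 0.918. They were 0.813 and 0.746 without ZT8 replicate 3, and 0.927 and 0.898 without ZT20 replicates 3 and 4. The sum of the large subunit divided by that of the small one was 1.42 in ZT8 replicate 2 and 1.55 to 1.70 in the other 6 samples. The number of genes listed above 0 also differed, with 24192 to 25238 in the ZT20 samples and 22541, 18297 and 22973 in ZT8 replicates 1 to 3, and its part in the results was not tested. In bulk samples, fewer cells of a type and less RNA per cell cannot be told apart. No p-value is given for these sums, since the members were chosen as a group and are not replicates.

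**Figure D1:**
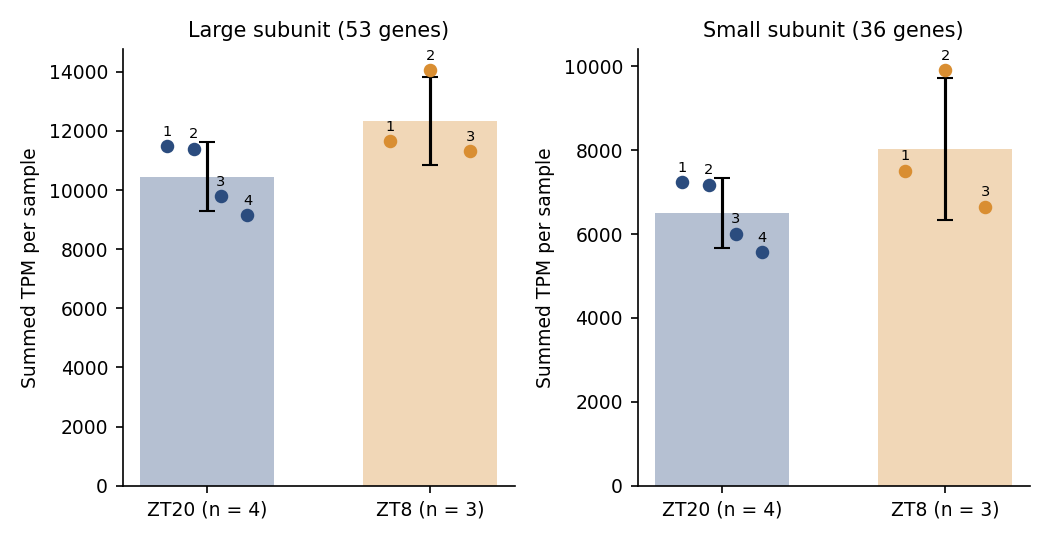
Summed TPM of the large subunit genes (left) and the small subunit genes (right) in each sample; bars are group means, whiskers are SDs (n = 4 at ZT20, n = 3 at ZT8), and numbered points are the replicates. ZT8 replicate 2 is the highest sample in both panels, and ZT20 replicates 3 and 4 are the lowest.

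Gene by gene the order of the samples was less uniform. ZT8 replicate 2 was the highest of the 7 samples for 38 of the 82 tested members and the lowest for 10, and ZT20 replicate 1 was the highest for 30. ZT20 replicate 4 was the lowest for 42, ZT8 replicate 3 for 13 and ZT20 replicate 3 for 8. All samples are labelled male, yet the summed TPM of 4 genes of the Y chromosome (Uty, Kdm5d, Ddx3y and Eif2s3y) was 63.6 and 33.1 in ZT20 replicates 1 and 2, 61.1 to 84.6 at ZT8, and 0.0162 and 0.00868 in ZT20 replicates 3 and 4. The libraries labelled ZT20 replicates 3 and 4 thus go against their label on sex, and results are also given without them. The library names follow 1 scheme at ZT20 and another at ZT8, so a batch behind these names, if there was one, cannot be told apart from the time of day.

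Of the 82 tested members, 6 were higher and 8 were lower at ZT20 by limma with Benjamini-Hochberg adjustment over all 14800 tested genes (threshold 0.05). Higher were Rps28, Rps29, Rps26, Rpl38, Rpl37 and Rpl39, and lower were Rpl13a, Rps14, Rps27a, Rpl3, Rpl10a, Rps6, Rpl14 and Rpl15. The 14 genes are 17.1% of the members, against 16.4% of all tested genes, so the share past the threshold was near the background. By direction, 7.32% of the members were higher against 12.8% of all genes, and 9.76% were lower against 3.61%. An unadjusted p-value under 0.05 was reached by 24 of the 82 and by 34.6% of all genes. With another scaling between samples the split of higher against lower members moved: 3 against 14 under median-ratio scaling, 5 against 4 under quantile normalization and 7 against 2 when each sample was scaled to its own sum of ribosomal protein TPM. The shares of all genes were 7.62% higher and 7.84% lower, 6.91% and 5.50%, and 15.1% and 0.750%, in that order. Values of the groups did not overlap for 8 members above and 13 below, where all genes gave 24.5% above and 8.72% below.

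The median log2 difference (ZT20 minus ZT8, on log2(TPM + 1)) was −0.095 over the 82 members, −0.10 for the large and −0.094 for the small subunit, against 0.23 over all tested genes. It was −0.33 under median-ratio scaling, where the median of all genes was 0.033, and −0.093 under quantile normalization (all genes 0.0046). Own-sum scaling, which by construction makes the members' sum equal in every sample, gave 0.16 (all genes 0.45). Without ZT20 replicates 3 and 4 the median was 0.013 (all genes 0.17), so its sign depended on these 2 libraries. Single libraries moved it too: it was −0.16 without ZT20 replicate 1, −0.044 without ZT20 replicate 4 and −0.062 without ZT8 replicate 2. For the large subunit these values were −0.16, −0.026 and −0.048. For the small subunit they were −0.19, −0.044 and −0.066, and −0.16 without ZT8 replicate 3. The members' median lay below that of all genes with the settings used (a gap of −0.33) and under the 25 alternatives, 2 of which cannot move it. Alternatives that only rescale whole samples shift both medians nearly alike. They could therefore hardly change the gap, and its sign under them is no added support. The gap was −0.052 with a correction for transcript length and GC content and −0.014 with the replicate block as well, where the medians of the large subunit and of all genes were both −0.018. Positive differences were found for 30 members and negative ones for 52. The range among members was wide, from −1.06 for Rpl13a to 1.37 for Rps28, and 4 members differed by at least 2-fold.

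**Figure D2:**
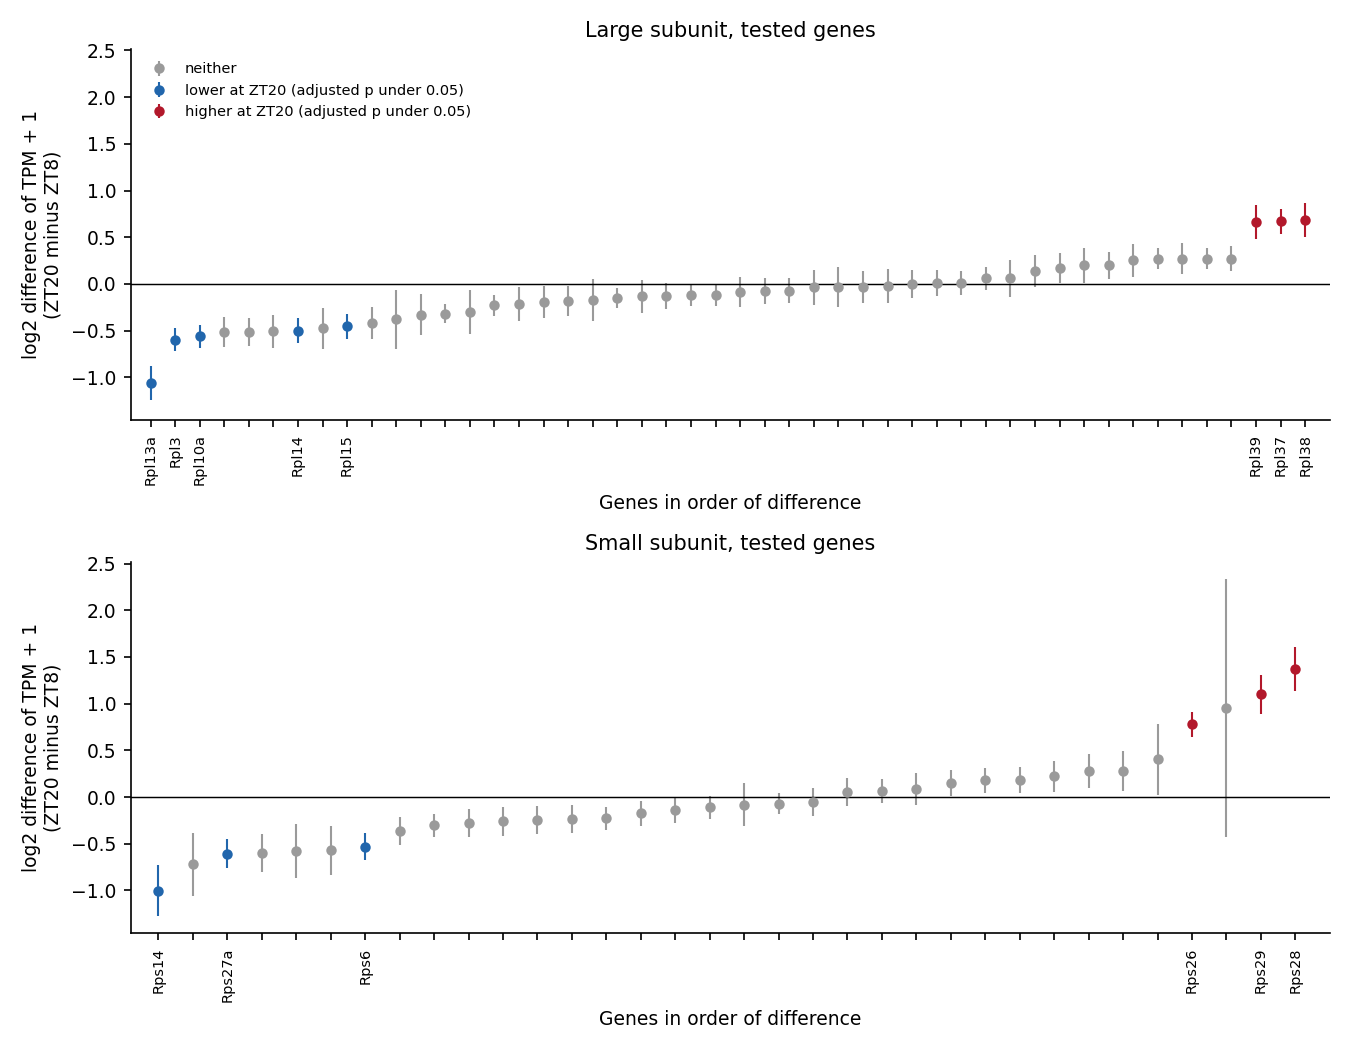
Log2 difference of TPM + 1 (ZT20 minus ZT8) for each tested gene of the large (top, 48 genes) and small subunit (bottom, 34 genes), in order of size; whiskers are limma standard errors, colour marks the adjusted p-value, and names are given for the 14 called genes. Most genes lie between −0.5 and 0.5, and each subunit holds called genes at both ends.

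How many members passed depended on single libraries. The number higher was 4 or 5 in each fit that left out 1 sample. The number lower was 1 without ZT20 replicate 3 or without ZT20 replicate 4, 2 without ZT20 replicate 1, 4 without ZT8 replicate 1 or 2, 5 without ZT20 replicate 2 and 7 without ZT8 replicate 3. Without both ZT20 replicates 3 and 4, 0 members and 0 of all genes passed limma's adjusted threshold, while 2378 genes had an unadjusted p-value under 0.05. Over all genes the share higher in the fits that left out 1 sample was 4.20% to 16.0%, and the share lower 0.698% to 4.53%. The sign of the 14 members, which were picked out by the size of their differences, was the same in the 25 alternatives, of which 4 leave every difference as it is.

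Markers of some cell types differed between the groups as well. The summed TPM of 10 satellite glia markers was 7996 to 9754 at ZT20 and 13500 to 16408 at ZT8, with 4 of them lower and 0 higher. Most of this sum was Apoe, at 6261 to 7615 TPM at ZT20 and 10623 to 13557 TPM at ZT8. Kcnj10 and Cdh19 had positive log2 differences (0.21 and 0.38) and did not pass. For 10 markers of B and plasma cells it was 271 to 494 and 503 to 947 TPM, with 1 of the 7 tested lower and 0 higher. Of these 7, 2 had a positive log2 difference, and Xbp1 and Sdc1 hardly differed (0.044 and −0.0047). For 15 neuron markers it was 21039 to 25635 and 15812 to 23128, with 5 higher and 0 lower, and 0 of these markers was listed at 0 throughout. The 5 erythroid markers summed to 9534 TPM in ZT8 replicate 2, against 951 and 1603 TPM in ZT8 replicates 3 and 1, and 2369 to 6679 TPM in the ZT20 group. The sums of Schwann cell, macrophage, fibroblast and endothelial markers overlapped between the groups. With a score of neuronal minus non-neuronal markers as covariate, 0 members and 0 of all genes passed limma's adjusted threshold, and 1444 genes had an unadjusted p-value under 0.05. The part of cell mixture in the differences of the ribosomal protein genes was not tested.

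Of the small subunit, Rps28 had the largest positive difference. Rps28 (ENSMUSG00000067288) is a small protein beside the channel through which the mRNA leaves the subunit. It stood at 55.7, 34.5, 28.9 and 43.4 TPM in ZT20 replicates 1 to 4 and at 17.6, 13.1 and 13.6 TPM in ZT8 replicates 1 to 3. Every ZT20 sample was above every ZT8 sample. The log2 difference was 1.37 (standard error, SE, 0.23, limma adjusted p = 0.00945).

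Rps29 (ENSMUSG00000034892), a zinc-binding protein of the subunit's head, was at 201, 174, 145 and 116 TPM at ZT20 and at 86.9, 60.5 and 71.5 TPM at ZT8. The groups did not overlap, and the log2 difference was 1.10 (SE 0.21, limma adjusted p = 0.0124). Rps26 (ENSMUSG00000025362), which lies at the mRNA exit channel and contacts the bases before the start codon, was at 172, 143, 146 and 121 TPM at ZT20. At ZT8 it was at 83.2, 88.7 and 79.6 TPM, a narrow range below all ZT20 values. Its log2 difference was 0.78 (SE 0.14, limma adjusted p = 0.0103).

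Of the small subunit, Rps14, Rps27a and Rps6 were lower at ZT20. Rps14 (ENSMUSG00000024608), a protein of the platform whose loss in humans is tied to a form of anaemia, was the member with the highest mean level. It was at 620, 836, 512 and 492 TPM at ZT20 and at 1143, 1805 and 849 TPM at ZT8. The highest ZT20 value and the lowest ZT8 value were 836 and 849 TPM, so the groups stood apart by little. The log2 difference was −1.003 (SE 0.27, limma adjusted p = 0.0384).

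Rps27a (ENSMUSG00000020460) is made as a fusion with ubiquitin, which is cut off afterwards. It was at 201, 198, 172 and 152 TPM at ZT20 and at 266, 330 and 234 TPM at ZT8, without overlap. The log2 difference was −0.61 (SE 0.15, limma adjusted p = 0.0326). Rps6 (ENSMUSG00000028495), whose protein is phosphorylated by S6 kinases downstream of mTOR and is widely read as a sign of that pathway's activity, was at 391, 370, 332 and 317 TPM at ZT20. At ZT8 it was at 467, 627 and 448 TPM, all above the ZT20 values, and the log2 difference was −0.53 (SE 0.15, limma adjusted p = 0.0408). RNA levels say nothing of its phosphorylation.

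**Figure D3:**
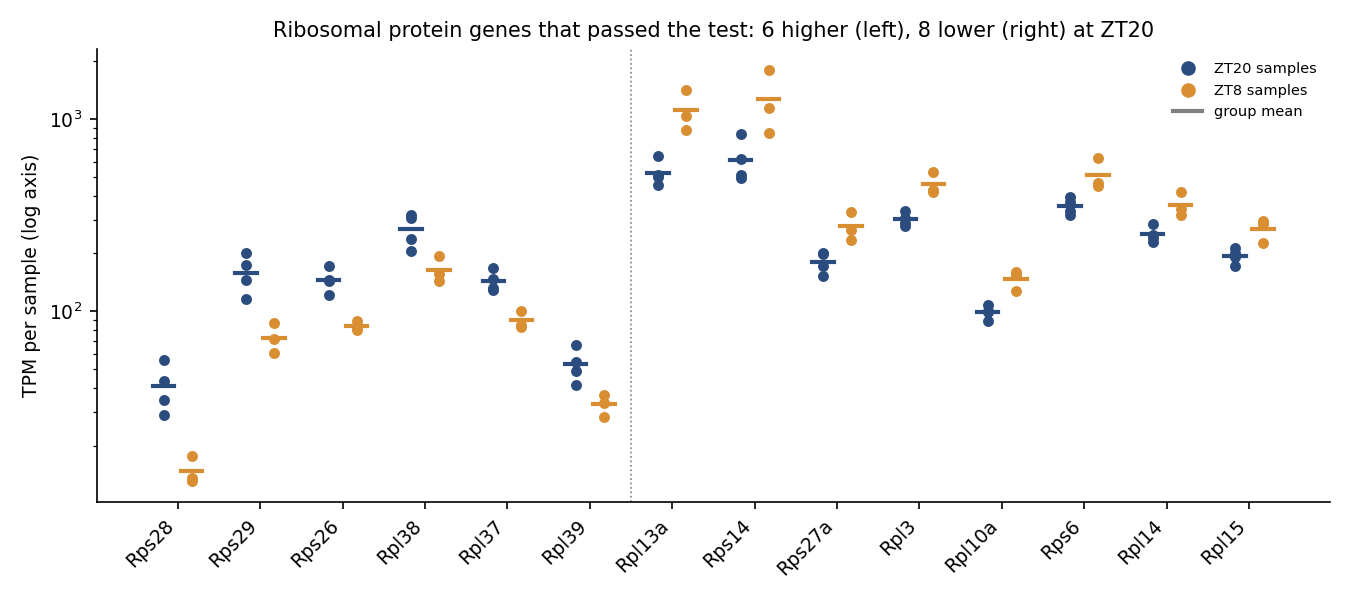
TPM in each sample (log axis) for the 6 ribosomal protein genes higher and the 8 lower at ZT20 by limma; points are samples (4 at ZT20, 3 at ZT8) and short lines are group means. The ZT20 and ZT8 points do not overlap for any of the 14 genes.

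Other small subunit genes of known role did not pass the adjusted threshold. Rps3 (ENSMUSG00000030744), at the mRNA entry channel, averaged 309 ± 52.0 TPM at ZT20 (SD, n = 4) and 478 ± 148 TPM at ZT8 (n = 3). The groups overlapped through ZT20 replicate 2 (386 TPM) and ZT8 replicate 3 (362 TPM), and the log2 difference was −0.60 (limma adjusted p = 0.0797). Rps19, the gene most often mutated in the inherited anaemia of Diamond and Blackfan, was at 252 ± 37.2 and 217 ± 41.1 TPM (log2 difference 0.22, limma adjusted p = 0.363). Rpsa, which is also known as a receptor for laminin, was at 130 ± 14.3 and 140 ± 9.07 TPM (limma adjusted p = 0.557). Among the abundant genes, Rps9 was at 396 ± 53.2 and 512 ± 93.9 TPM (limma adjusted p = 0.135).

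Of the large subunit, Rpl38, Rpl37 and Rpl39 were higher at ZT20. Rpl38 (ENSMUSG00000057322), which in mouse embryos is needed for translation of a subset of Hox mRNAs, was at 305, 317, 239 and 206 TPM at ZT20 and at 193, 156 and 144 TPM at ZT8. Its lowest ZT20 value, in replicate 4, was above its highest ZT8 value, in replicate 1. The log2 difference was 0.69 (SE 0.18, limma adjusted p = 0.0356). Rpl37 (ENSMUSG00000041841), a zinc-binding protein, was at 146, 168, 129 and 132 TPM at ZT20 and at 85.1, 83.0 and 101 TPM at ZT8. The groups did not overlap, and the log2 difference was 0.67 (SE 0.14, limma adjusted p = 0.0157). Rpl39 (ENSMUSG00000079641), a very short protein that lines the exit tunnel of the growing peptide, was at 67.0, 54.5, 48.8 and 41.5 TPM at ZT20. At ZT8 it was at 36.7, 33.5 and 28.04 TPM, and the log2 difference was 0.66 (SE 0.18, limma adjusted p = 0.0422).

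The large subunit genes lower at ZT20 were Rpl13a, Rpl3, Rpl10a, Rpl14 and Rpl15. Rpl13a (ENSMUSG00000074129), which can leave the ribosome as part of a complex that represses inflammatory mRNAs, was at 510, 639, 502 and 453 TPM at ZT20 and at 1033, 1425 and 877 TPM at ZT8. All ZT8 samples were above all ZT20 samples, and the log2 difference was −1.06 (SE 0.18, limma adjusted p = 0.00999). Rpl3 (ENSMUSG00000060036), whose finger reaches the site where peptide bonds form, was at 305, 333, 286 and 278 TPM at ZT20 and at 419, 528 and 425 TPM at ZT8. The ZT20 values lay close together, and the log2 difference was −0.60 (SE 0.12, limma adjusted p = 0.0165). Rpl10a (ENSMUSG00000037805), a protein of the stalk beside the exit site, was at 99.3, 107, 101 and 89.5 TPM at ZT20 and at 128, 154 and 161 TPM at ZT8. The groups did not overlap, and the log2 difference was −0.56 (SE 0.13, limma adjusted p = 0.0214).

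Rpl14 (ENSMUSG00000025794) was at 284, 230, 241 and 249 TPM at ZT20 and at 339, 316 and 416 TPM at ZT8. Rpl15 (ENSMUSG00000012405), another large subunit protein altered in Diamond-Blackfan anaemia, was at 202, 213, 192 and 172 TPM at ZT20 and at 226, 294 and 286 TPM at ZT8. Both kept their groups apart, with log2 differences of −0.50 and −0.46, SE 0.13 for each, and adjusted p-values from limma of 0.0354 and 0.0487. Both calls were lost in 17 of the 25 alternatives, as was that of Rps6, whereas those of Rpl13a, Rps26, Rps28 and Rps29 were lost in 2 each: the marker covariate, and leaving out ZT20 replicates 3 and 4. The call of Rpl39 was lost in 15 alternatives, that of Rps27a in 12, those of Rps14 and Rpl38 in 11 each, that of Rpl10a in 9, and those of Rpl3 and Rpl37 in 6 each. Over the alternatives the log2 difference of Rps14 was −1.26 to −0.31, that of Rpl14 −0.99 to −0.24 and that of Rpl15 −0.69 to −0.20.

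The proteins of the lateral stalk, which recruits elongation factors, did not pass. Rplp0 was at 455, 412, 391 and 396 TPM at ZT20 and at 523, 535 and 490 TPM at ZT8. These values did not overlap, and the log2 difference was −0.32 (SE 0.10, limma adjusted p = 0.0622). Its partners Rplp1 and Rplp2 had log2 differences of −0.033 and 0.060 (limma adjusted p = 0.904 and 0.848), with overlapping values. Rpl5 and Rpl11, which carry the 5S RNA into the subunit and bind MDM2 when ribosome assembly fails, were at −0.13 and −0.19 (limma adjusted p = 0.614 and 0.457). The Rpl5 entry holds a small share of its family: with its copy Gm15500 added, Rpl5 was at 291, 301, 261 and 246 TPM at ZT20 and at 338, 409 and 343 TPM at ZT8, without overlap (log2 difference −0.40, limma adjusted p = 0.0553). Rpl10, which joins late and is needed before the subunits can join, was at 163 ± 27.6 and 162 ± 16.8 TPM (log2 difference −0.0033, limma adjusted p = 0.989). Among abundant members, Rpl19, Rpl35, Rpl41 and Rpl26 had log2 differences of −0.51, −0.42, −0.33 and −0.18, and their adjusted p-values from limma were 0.0832 to 0.441.

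Of the duplicated forms, 7 lay below the level of the filter, and the others lay above it. Not tested were Rpl3l, the form of Rpl3 in striated muscle, Rpl10l and Rpl39l, known from testis, and Rpl6l, Rpl32l, Rps3a2 and Rps3a3. Each of these 7 had a group mean of at most 0.314 TPM. Of the others, Rps27l, a gene induced by p53, was at 105 ± 24.0 TPM at ZT20 and 161 ± 62.7 TPM at ZT8 (log2 difference −0.57, limma adjusted p = 0.162), and its parent Rps27 was at 143 ± 48.2 and 115 ± 66.3 TPM (log2 difference 0.40, limma adjusted p = 0.477). With its copy Rps27rt added, Rps27 was at 176 ± 36.2 and 153 ± 42.0 TPM. That copy was listed at 0 in ZT20 replicate 2 and ZT8 replicate 2, where Rps27 was highest. Rpl7l1, which acts in assembly of the large subunit in the nucleolus, was at 79.4 ± 2.81 and 88.3 ± 6.00 TPM (limma adjusted p = 0.354). Rps4l, annotated as a transcribed processed pseudogene, was at 69.4 ± 10.2 and 71.6 ± 7.90 TPM (limma adjusted p = 0.839). Rpl22l1 was at 69.1 ± 9.80 and 61.5 ± 11.1 TPM (limma adjusted p = 0.487), and Rpl22, whose protein controls it, at 35.5 ± 4.20 and 30.6 ± 2.65 TPM (limma adjusted p = 0.349). Rps12l1, annotated as a processed pseudogene, was listed at 0 in 4 of 7 samples and at 11.2 to 22.6 TPM in the other 3. Its 4 near-identical copies together were at 12.7 to 23.4 TPM where it was at 0, and at 0.838 to 4.10 TPM in the other 3. With the copies added it was at 12.1 to 26.7 TPM, so the zeros are values of this entry alone.

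The members past the test differed in the length of their coding part, which the selection did not use. The 6 higher members had coding parts of 153 to 345 nt, and the 8 lower ones of 453 to 1209 nt (longest coding transcript in GENCODE M21, matched by identifier). Among the 80 tested members annotated as coding, 17 had up to 350 nt, of which 6 were higher and 0 lower. Of the 20 with 351 to 450 nt, 0 were called in either direction, and of the 43 with more than 450 nt, 0 were higher and 8 lower. The medians of the log2 difference were 0.20, −0.053 and −0.17 in that order. Length did not order the genes strictly: Rpl41, with the shortest coding part (138 nt), was at −0.33, Rps21 (249 nt) at −0.24 and Rps27l (315 nt) at −0.57, and none of these passed. The bounds of 350 and 450 nt were set after the values were seen, so the counts are a description.

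**Figure D4:**
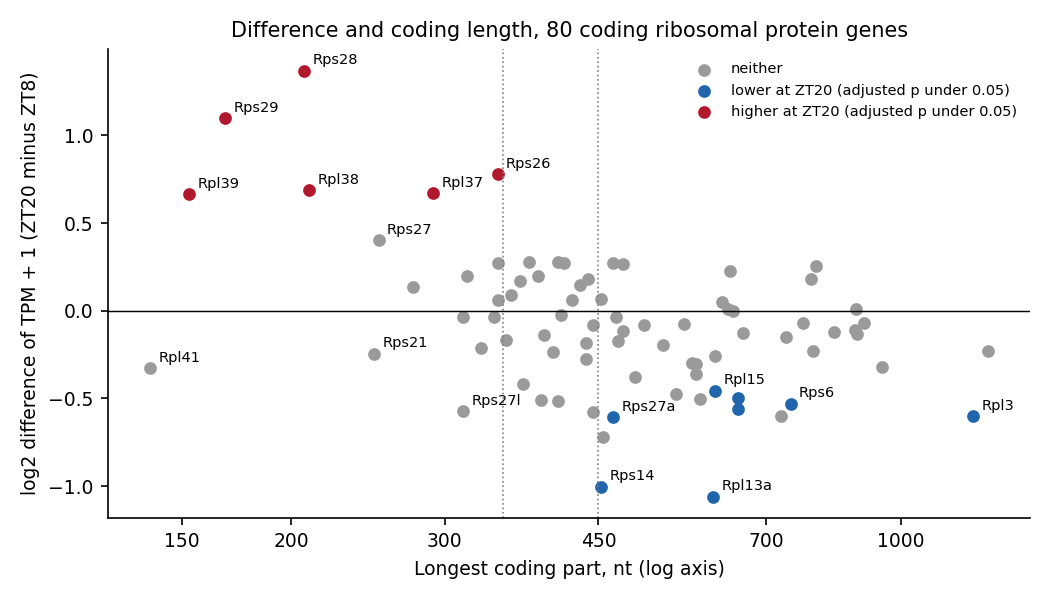
Log2 difference of TPM + 1 (ZT20 minus ZT8) against the longest coding part in nt (log axis) for the 80 tested ribosomal protein genes annotated as coding; dotted lines mark 350 and 450 nt, and colour marks limma's adjusted p-value. The 6 higher genes lie left of the first line and the 8 lower genes right of the second, with uncalled genes in every range.

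Other protein-coding genes were read in the same way. Among 462 other tested genes with coding parts up to 350 nt, 6.28% were higher and 8.01% lower, and the median log2 difference was −0.029. Among 483 others with 351 to 450 nt, 4.14% were higher and 9.11% lower (median −0.11). Among 5270 others with more than 450 and up to 1300 nt, 7.27% were higher and 6.91% lower (median 0.040). Among the others with a mean of at least 30 TPM, nearer the members' level, 6.39% were higher and 10.9% lower up to 350 nt (266 genes, median −0.049), 4.70% and 13.4% with 351 to 450 nt (298 genes, median −0.15), and 7.20% were higher and 12.4% lower above 450 and up to 1300 nt (2318 genes, median −0.048). Higher genes were most frequent among long coding parts: of 6840 others above 1300 nt, 19.4% were higher and 0.746% lower, and no member is that long. Across the 80 members, Spearman's rho of the difference with coding length was −0.363, and across 82 it was −0.527 with mean TPM. These points share the same 7 libraries and part of their sequence, and the coefficients are given as a description. With each sample corrected for transcript length and GC content, the 6 higher members passed again, 6 members were lower, and 4 of the 8 lower ones were among those 6. Of all genes 3.58% were then higher and 5.26% lower.

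Ribosomal protein genes have many processed copies in the mouse genome, and reads from a copy and its parent cannot always be told apart. Of the 83 members with a coding part, the median had 94.8% of its 31-base words in some other transcript of GENCODE M21, and 30 had all of them there. The members past the test were no exception, at 67.1% for Rps14 to 100% for Rps6, Rpl15, Rpl38, Rps27a, Rps29, Rpl10a, Rpl39 and Rps28. Among the 11 tested members with under 60% shared words, such as Rpl8 (11.1%) and Rps3 (19.0%), 0 passed the adjusted threshold in limma and 2 had an unadjusted p-value under 0.05, where all genes gave 16.4% and 34.6%. With 11 genes no contrast with the members of more shared words was tested. Their median log2 difference was −0.23, against −0.024 for the 31 members with all words shared.

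Genes outside the selection that hold at least 80% of a member's words, called copies here, numbered 92 and belonged to 54 members. Their summed TPM came to 13.8% to 17.2% of that of the members, sample by sample. For 8 members the copies were listed above the member itself. Rpl5 had a mean of 15.9 TPM, and Gm15500, which holds 100% of its words, 297 TPM. Rpl12 had 9.08 TPM against 119 TPM for Gm10275, and Rps23 had 35.5 TPM against 116 TPM for Rps23-ps1. Low values of Rpl5, Rpl12 and Rps23 in this table are therefore levels of the entry with that symbol and not of the mRNA family.

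**Figure D5:**
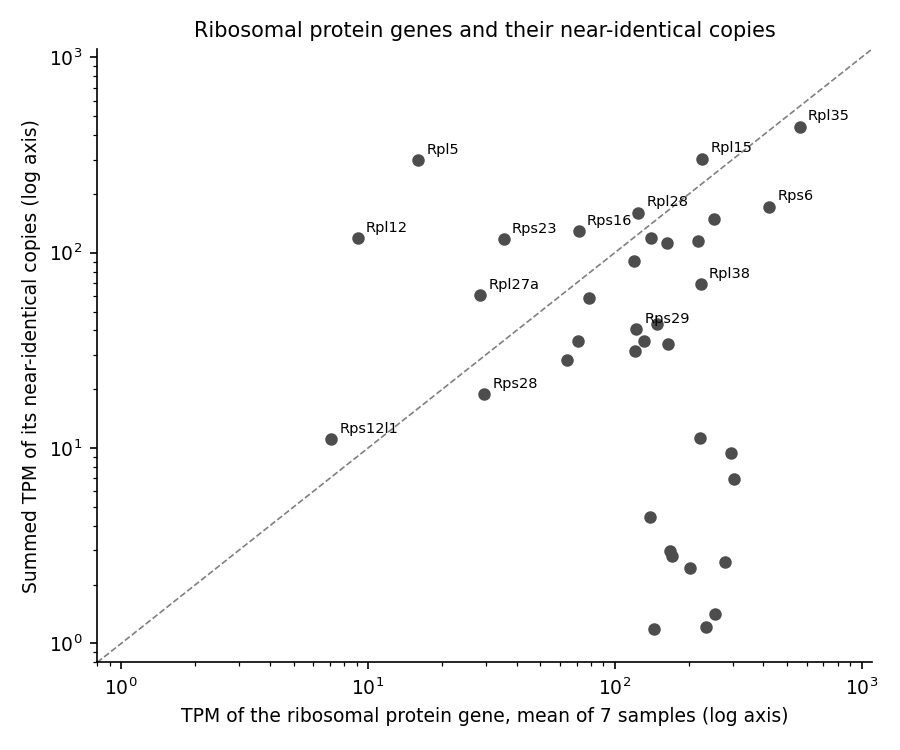
Mean TPM over the 7 samples of a ribosomal protein gene (x axis) and of its near-identical copies added together (y axis), both on log axes, for the 36 members with both means at 1 TPM or more; the dashed line marks equal levels. The 8 members above the line include Rpl5 and Rpl12, whose copies were at 297 and 119 TPM.

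Adding the copies to each member left 5 higher and 6 lower, where 1897 and 532 of all 14760 genes in that fit were called. Rps28 with its 3 copies averaged 68.7 ± 20.5 TPM at ZT20 (SD, n = 4) and 21.4 ± 5.97 TPM at ZT8 (n = 3), a log2 difference of 1.63 (limma adjusted p = 0.00958). Rps29 with its copy was at 222 ± 58.1 and 84.0 ± 23.3 TPM, a log2 difference of 1.39 (limma adjusted p = 0.0097). Rpl38 with 2 copies was at 361 ± 53.9 and 199 ± 23.2 TPM (log2 difference 0.85, limma adjusted p = 0.00939), and its main copy Rpl38-ps2 alone was at 71.3 to 116 TPM at ZT20 and 31.6 to 40.2 TPM at ZT8. Rpl15 with 4 copies was at 456 ± 23.7 and 628 ± 69.1 TPM (log2 difference −0.46, limma adjusted p = 0.0276). The calls of Rpl37, Rpl14 and Rps6 were lost, at log2 differences of 0.59, −0.42 and −0.45 and adjusted p-values from limma of 0.0502, 0.0502 and 0.0913. This alternative was chosen after the data were seen.

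The stretches before the start of the genes with the largest positive and negative difference are shown because the members moved in both directions and their promoters can be compared. Each holds the 250 bases before the start in RefSeq (GRCm38.p6), and capitals mark matches to the motifs searched on both strands: the E-box CACGTG bound by the clock proteins CLOCK and BMAL1, the ETS core CCGGAA, the YY1 core AAGATGG, the SP1 box GGGCGG, the TATA box TATAAA, the D-box TTATGTAA and the ROR half-site AGGTCA.
Rps28 (chr17:33824563-33824812, minus strand): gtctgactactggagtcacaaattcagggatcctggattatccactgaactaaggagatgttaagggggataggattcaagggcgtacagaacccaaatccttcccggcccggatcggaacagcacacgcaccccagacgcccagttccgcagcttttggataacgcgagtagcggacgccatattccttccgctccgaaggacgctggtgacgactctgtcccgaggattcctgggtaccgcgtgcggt
Rpl13a (chr7:45128746-45128995, minus strand): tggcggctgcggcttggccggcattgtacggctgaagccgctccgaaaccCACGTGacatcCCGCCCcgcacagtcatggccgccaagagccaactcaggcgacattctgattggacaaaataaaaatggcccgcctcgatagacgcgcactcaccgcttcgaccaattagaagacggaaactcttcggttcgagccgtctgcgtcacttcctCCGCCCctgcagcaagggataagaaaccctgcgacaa
The Rpl13a stretch held an E-box at −200 and SP1 boxes at −189 and −37, counted in bases from the start, and the Rps28 stretch held no match to these letters. A TATA box of Rps28 lies after the start, outside the stretch shown.

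Over windows from 250 bases before to 50 after the start, the ETS core was in 49.3% of the 71 windows of tested members and in 14.9% of all windows. The SP1 box was in 62.0% against 35.7%, the YY1 core in 16.9% against 6.34%, the TATA box in 9.86% against 13.6% and the ROR half-site in 9.86% against 16.3%. The E-box was in 11.3% of member windows and 7.15% of all windows, and the D-box in 0% and 0.938%. Of the members past the test with a window, the ETS core was found for 4 higher and 4 lower ones, the SP1 box for 2 and 4, the YY1 core for 1 and 1, the TATA box for 2 (Rpl39 and Rps28) and 0, and the E-box for 0 and 2 (Rpl13a and Rpl14). No difference between the directions was tested. A match to these letters is no evidence of binding.

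Genes that act with the ribosome were counted from lists, and their counts stand beside the shares of all genes, 12.8% higher and 3.61% lower with the settings used and as given above under the others. Of 78 mitochondrial ribosomal protein genes, which are nuclear genes for the ribosome inside mitochondria, 0 were higher and 18 lower (median log2 difference −0.22), the lowest of those called being Mrpl46 at −1.07 (96.9 ± 18.5 against 204 ± 36.9 TPM, limma adjusted p = 0.009). The lower count was 31 under median-ratio scaling, 20 under quantile normalization and 22 with the length and GC correction, each with 0 higher and with more of all genes lower (7.84%, 5.50% and 5.26%), while own-sum scaling gave 2 higher and 7 lower and turned the median to 0.043. Of 25 other genes with TOP mRNAs, 6 were higher and 4 lower (median −0.11), which became 1 and 7 under median-ratio scaling, 1 and 2 with the length and GC correction (median −0.23) and 5 and 0 under own-sum scaling. Pabpc1, the poly(A)-binding protein, was at 101 ± 7.19 and 46.5 ± 7.56 TPM (log2 difference 1.12, limma adjusted p = 0.00394). Eef2, which moves the ribosome along the mRNA, was at 222 ± 20.5 and 138 ± 37.0 TPM (0.71, limma adjusted p = 0.036), and Naca, which binds emerging peptides, at 211 ± 17.3 and 325 ± 62.4 TPM (−0.60, limma adjusted p = 0.0276). Eef1a1, which brings aminoacyl-tRNA, was at 608 ± 107 and 654 ± 110 TPM and did not pass (limma adjusted p = 0.669).

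Fau encodes a ribosomal protein fused to a ubiquitin-like protein, but its symbol falls outside the selection. It was at 434 ± 72.0 and 576 ± 89.0 TPM, with a log2 difference of −0.41 (limma adjusted p = 0.116). Of 49 genes of ribosome assembly, 5 were higher and 2 lower (median 0.061), against 1 and 7 under median-ratio scaling (median −0.16) and 0 and 5 with the length and GC correction (median −0.11). Among those called were Nvl at 1.28 and Mrto4 at −0.59 (limma adjusted p = 0.0319 and 0.0401). Of 12 genes of RNA polymerase I, which makes the ribosomal RNA, 2 were higher and 1 lower: Polr1a at 0.91, Rrn3 at 0.75 and Polr1c at −0.72 (limma adjusted p = 0.0218, 0.0235 and 0.0249). The median of these 12 was 0.17, and with the length and GC correction it was −0.00097 with 0 higher and 1 lower. Median-ratio scaling gave 1 and 1 (median −0.048), and own-sum scaling 2 and 0.

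Of 22 genes that regulate ribosomal protein mRNAs or the mTOR and MYC pathways, 7 were higher and 0 lower (median 0.44), with 4 and 0 under median-ratio scaling (median 0.21) and 3 and 2 with the length and GC correction (median 0.025). Without ZT20 replicates 3 and 4, 0 genes of any of these lists passed. Larp4, which binds mRNA tails, was at 17.1, 21.3, 18.3 and 18.7 TPM at ZT20 and at 3.91, 4.46 and 3.70 TPM at ZT8, a log2 difference of 1.98 (limma adjusted p = 0.00152). Larp1, which binds TOP tracts, was at 17.4, 18.9, 17.4 and 17.7 TPM at ZT20 and at 4.50, 5.31 and 4.79 TPM at ZT8, a log2 difference of 1.69 (limma adjusted p = 0.00193). Both groups were tight and far apart for these genes. Myc was at 26.9 ± 4.23 and 15.4 ± 2.56 TPM (0.77, limma adjusted p = 0.0275). Mtor and the S6 kinase gene Rps6kb1 had log2 differences of −0.56 and 0.41 and did not pass (limma adjusted p = 0.154 and 0.204).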

How the data were processed

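RNA of 7 ganglion samples was sequenced by the authors. They deposited TPM values, 1 column per sample, for 54309 genes (1281 without a symbol). The submitters' processing notes name FastQC 0.11.9, Trim Galore 0.6.6, Salmon 1.6.0, DESeq2 1.34.0 and build GRCm39, without roles. TPM keeps no depth, so the depth and counting error of each value are unknown. All 7 columns matched a sample, and 0 were left unused.

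Here log2(TPM + 1) was fitted by limma 3.58.1 (lmFit, eBayes with trend, R 4.3.3) for the 14800 genes whose mean reached 1 TPM, without covariates, two-sided, with Benjamini-Hochberg adjustment. A difference on this scale understates that of low genes. The procedure was tested on simulated data. Members, gene lists and tests were chosen with earlier results of these data known. Named by rule were abundant, extreme, duplicated, role-defined and low members. A few genes that the rule named are not reported here by name. Rpl37, Rpl10a, Rpl14 and Rpl15 were named after their values were seen. Lengths and shared words came from GENCODE M21 and promoters from RefSeq GRCm38.p6, matched by identifier or symbol. Since that build differs from the deposited one, coordinates are given only for the printed RefSeq windows. Alternatives were a pseudocount of 0.1, other filters (none, 5 TPM), scalings (median ratio, quantile, without mitochondrial or immunoglobulin genes), length and GC correction (loess, span 0.3), replicate block, marker covariate, no trend, array weights, a threshold of 0.10, pseudogenes or copies added to parents, own-sum scaling, and left-out samples. Tables used pandas 2.3.3 and figures matplotlib 3.10.9 in Python 3.11.15.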

Additional observations from a re-analysis of the deposited data

Results flagged for a closer look

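Of the 43 named members with a test, 4 had 1 ZT20 sample far from the other 3, meaning that its gap to the nearest of them took more of the group's whole range than the 95% critical share of Dixon's test, and chance gives about 2.15 in 43. Rps3 measured 386 TPM in ZT20 replicate 2, against 275 to 290 TPM in the group's remaining samples (share 0.861). Rpl7l1 measured 75.2 TPM in ZT20 replicate 1, against 80.3 to 81.2 TPM in the group's remaining samples (share 0.844). Rpl10 measured 204 TPM in ZT20 replicate 3, against 145 to 155 TPM in the group's remaining samples (share 0.834). The near-identical copies of Rpl10 were lowest in this same sample, summing to 78.9 TPM against 99.5 to 172 TPM in the remaining ones. With the copies added, replicate 3 measured 283 TPM, inside the span of 244 to 326 TPM of the remaining ones. The high Rpl10 value is therefore one of that entry alone. Rps19 measured 307 TPM in ZT20 replicate 1, against 226 to 240 TPM in the group's remaining samples (share 0.829). The ZT8 group has 3 samples and was not examined in this way, and none of these 4 genes passed the adjusted threshold in limma.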

How the results depend on the processing

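With the settings used, 6 members were higher and 8 lower at ZT20, with a median log2 difference of −0.095 (large subunit −0.10, small subunit −0.094) and sum ratios of 0.847 and 0.810. The number lower moved to 3 without a filter, 14 under median-ratio scaling, 4 under quantile normalization, 3 without the intensity trend, 13 with array weights, 13 at a threshold of 0.10 and 2 with each sample scaled to its own sum of members. The share of all genes lower, 3.61% with the settings used, was 0.627%, 7.84%, 5.50%, 2.24%, 6.20%, 6.63% and 0.750% in that order. The number higher was 3 under median-ratio scaling. Both numbers were 0 with the marker covariate and without ZT20 replicates 3 and 4. Leaving out 1 sample each gave 4 to 5 higher and 1 to 7 lower. Median-ratio scaling moved the medians to −0.33 (all, large and small) and the ratios to 0.720 and 0.687, and own-sum scaling moved the medians to 0.16 (all, large and small). In the same order they were −0.044, −0.026 and −0.044 with the replicate block. They were −0.060, −0.060 and −0.053 with the length and GC correction, and −0.096, −0.13 and −0.057 with the marker covariate. With the replicate number as a block 5 were higher and 3 lower (all genes 6.02% and 1.91%), and with the length and GC correction as well 4 and 3 (1.57% and 1.96%). Deviations of samples with the same number had correlations of −0.014, 0.15 and 0.083. Samples with different numbers were not compared, so whether the numbers pair the samples was not tested. Among 1075 values of named members under the alternatives, 0 of the called members changed sign, 129 of 350 called values fell short of the threshold, 13 values of uncalled members passed, and 61 uncalled values changed sign. The cause was not tested, except that left-out samples and added covariates also leave fewer degrees of freedom. Own-sum scaling and the addition of copies were chosen after the data were seen. Precision is limited by 3 and 4 samples and an unknown depth.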
